A study of Mus musculus with 165 samples.

Results

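The major urinary protein (Mup) genes are a tandem family of mouse genes for small secreted lipocalins. The 10 members described here are Mup1, Mup2, Mup3, Mup7, Mup10, Mup11, Mup14, Mup17, Mup20 and Mup21. They were taken by symbol from a liver count table of 55471 Ensembl gene identifiers, and each symbol matched 1 identifier. The table also held 12 further Mup genes, 22 in all, and 27 Mup pseudogenes. All 10 members passed the filter on low counts and were among the 15579 liver genes tested. Near-identical members share reads, so the 10 were also summed in each liver.

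The Mup proteins are made mainly by hepatocytes, pass through the blood into the urine and carry small volatile pheromones in a barrel-shaped pocket. Mup20, known as darcin, is itself a pheromone protein of male urine, and Mup1 has been linked to glucose metabolism. Adult male mice express the family more strongly than females, under the male pattern of pulsed growth hormone that signals through the growth hormone receptor Ghr and the factor Stat5b, with androgen and thyroid hormone acting as well.

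Livers came from male mice of the inbred strain C57BL/6J/Ukj at 3, 9, 15, 24 and 28 months of age. There were 16 livers at each of 3, 9 and 15 months, 17 at 24 months and 18 at 28 months, 83 in all. No treatment or gene alteration is named, and per the labels the mice were kept only to age. Polyadenylated RNA was sequenced in 3 library preparations (preps 1 to 3 here), each with 4 to 7 livers of every age. The labels number the livers of each age but do not say outright that each number is a different mouse, so the p-values measure the spread between these samples.

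Liver libraries held 5.82 to 57.5 M counts, with a median of 32.9 M. Several livers stood apart, most of all 28 months replicate 14. It had 14018 CPM (a gene's counts set against the TMM-scaled library total and multiplied by 1e6) of the hepatocyte gene Alb (albumin), against 62472 to 92235 CPM in the other livers of its age. It also held 255 CPM of summed pancreas markers, against 6.51 to 16.3 CPM in the others, and 8810 CPM of the acute phase gene Saa2. The main results at 28 months are given with and without it. At 24 months, replicate 11 held 51.3 CPM of summed kidney markers, against 0 to 0.33 CPM in the others, and replicate 5 held 520 CPM of summed cholangiocyte markers, against 43.6 to 322 CPM. Without either of these, all 10 members were called for 24 against 3 months, at a median log2 fold change of -2.04 and -1.91. The smallest library was 15 months replicate 16.

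The members lie on mouse chromosome 4, all on the minus strand (GENCODE M21, GRCm38 coordinates). Mup7 (ENSMUSG00000073842) starts the members' stretch at chr4:60066469-60070475, and Mup17 (ENSMUSG00000096688) lies at chr4:61591929-61595871. Mup20 (ENSMUSG00000078672, chr4:62050234-62054158), Mup3 (ENSMUSG00000066154, chr4:62083476-62087342) and Mup21 (ENSMUSG00000066153, chr4:62147932-62150863) follow at the far end. Between Mup7 and Mup17 lie Mup2, Mup1, Mup10, Mup11 and Mup14, and these 7 are called the near-identical members here. Any pair of the 7 shared 98.4% to 99.4% of the aligned coding bases (21 pairs, median 98.9%). Pairs that included Mup3, Mup20 or Mup21 shared 82.4% to 94.8% (24 pairs).

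A stretch of 60 coding bases shows how little separates the near-identical members and how much separates Mup3, Mup20 and Mup21. The stretch was picked as the ungapped one with the most variable positions. Of its 60 positions 25 vary, against 123 of 555 in the whole alignment, so differences are denser here than in the full coding sequence. It was read from the GENCODE M21 transcripts, 5′ to 3′ on the coding strand, and starts at coding base 212, 215 or 224 depending on the gene. Capitals mark bases that differ from the majority base of the 10 members at that position.
Mup1: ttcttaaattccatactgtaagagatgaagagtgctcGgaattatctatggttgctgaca
Mup2: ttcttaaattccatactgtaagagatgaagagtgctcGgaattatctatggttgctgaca
Mup11: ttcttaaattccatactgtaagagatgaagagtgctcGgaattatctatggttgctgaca
Mup14: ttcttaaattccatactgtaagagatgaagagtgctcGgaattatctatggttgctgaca
Mup10: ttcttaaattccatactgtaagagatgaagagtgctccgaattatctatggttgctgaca
Mup7: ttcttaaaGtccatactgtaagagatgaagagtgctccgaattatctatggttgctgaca
Mup17: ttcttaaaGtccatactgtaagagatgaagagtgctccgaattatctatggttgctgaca
Mup20: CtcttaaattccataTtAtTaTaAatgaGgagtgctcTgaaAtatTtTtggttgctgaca
Mup3: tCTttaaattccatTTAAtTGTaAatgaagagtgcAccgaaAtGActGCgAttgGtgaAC
Mup21: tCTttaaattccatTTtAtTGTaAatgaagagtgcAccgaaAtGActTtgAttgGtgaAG

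Each near-identical member differed from the majority at 0 or 1 of these bases, Mup20 at 11, Mup21 at 18 and Mup3 at 20. The share of all 100-base windows of a member's transcript that occurs in the transcripts of no other gene shows the same split. It was 97.1% for Mup3, 95.5% for Mup21, 61.2% for Mup20 and 40.6% for Mup17. For Mup11, Mup10, Mup7 and Mup1 it was 16.5%, 14.6%, 12.9% and 12.8%, for Mup14 8.6%, and for Mup2 2.66%. Values of Mup3 and Mup21 therefore rest mostly on reads that fit 1 gene, while single values of the near-identical members are uncertain, because the rule for shared reads is not given in the sources used here.

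Since the members moved together with age, the sequence before their start sites was also read. RefSeq windows of 250 bases before the annotated start (GRCm38.p6, minus strand) matched 8 of the 10 members; Mup1 and Mup20 were not matched. Mup2, of the near-identical members, and Mup3 are shown, with the letters TATATAAG in capitals, read off these promoters and searched on both strands.
Mup2, chr4:60139857-60140106: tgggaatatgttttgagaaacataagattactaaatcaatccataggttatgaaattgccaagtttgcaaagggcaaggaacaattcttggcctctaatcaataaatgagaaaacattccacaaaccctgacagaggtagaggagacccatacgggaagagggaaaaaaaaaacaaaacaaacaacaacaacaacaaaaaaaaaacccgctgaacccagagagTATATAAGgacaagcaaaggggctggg
Mup3, chr4:62087318-62087567: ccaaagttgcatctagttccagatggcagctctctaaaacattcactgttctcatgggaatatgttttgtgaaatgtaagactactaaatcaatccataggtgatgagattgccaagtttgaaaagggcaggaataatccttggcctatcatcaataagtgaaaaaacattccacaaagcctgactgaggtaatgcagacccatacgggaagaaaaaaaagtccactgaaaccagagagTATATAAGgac

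These letters occurred in 5 of the 8 windows (Mup2, Mup3, Mup10, Mup17 and Mup21), against 0.992% of 27025 windows of all genes. Because they were read off these promoters, the contrast is a description and not a test. The letters began between 30 and 8 bases before the annotated start. The annotated starts thus do not sit at the same point of the shared sequence. The windows of Mup7, Mup11 and Mup14 end before or within the place of the letters in that sequence. These windows cannot show whether those genes have the letters. The letters of a STAT5 site, TTCNNNGAA, occurred in 0 of the 8 windows and in 7.18% of all windows. TGTTCT, part of the site of the glucocorticoid and androgen receptors, occurred in Mup3 and Mup21 and in 16.2% of all windows. A match is a description of the letters, and no match says only that they are not in these windows.

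The summed members were high in young livers and fell between 15 and 28 months. At 3 months the sum ran from 8401 to 19976 CPM with a median of 11309 CPM, or 1.16% of all counts. The 9-month livers ran from 9407 to 19341 CPM around a median of 12738 CPM, and the 15-month livers from 2759 to 17039 CPM around 10764 CPM. All livers of 9 months and 14 of 16 livers of 15 months lay within the 3-month range.

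At 24 months the sum ran from 228 to 8546 CPM with a median of 2335 CPM, 4.84-fold below the 3-month median. All but 1 of the 17 livers lay below the lowest 3-month liver, and 8 of 17 lay at or above the lowest 15-month liver. At 28 months the sum ran from 91.9 to 4755 CPM with a median of 480 CPM, 23.6-fold below 3 months and 0.0499% of all counts. Without the liver low in Alb the median was 430 CPM, 26.3-fold lower. All 18 livers lay below every 3-month liver, while 16 of 18 still overlapped the 24-month range.

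Livers of the same old age differed widely from each other. The highest liver stood 2.38-fold above the lowest at 3 months, 37.4-fold at 24 months and 51.7-fold at 28 months. Among the 15-month livers, replicate 1 alone stood low, at 2759 CPM, with the other 15 between 8309 and 17039 CPM. Relative to Alb, the sum was 39.8-fold lower at 28 than at 3 months, at medians of 21.8 and 0.548 CPM per 100 CPM of Alb. In bulk liver, fewer Mup-expressing hepatocytes and less Mup RNA in each cannot be told apart.

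**Figure D1:**
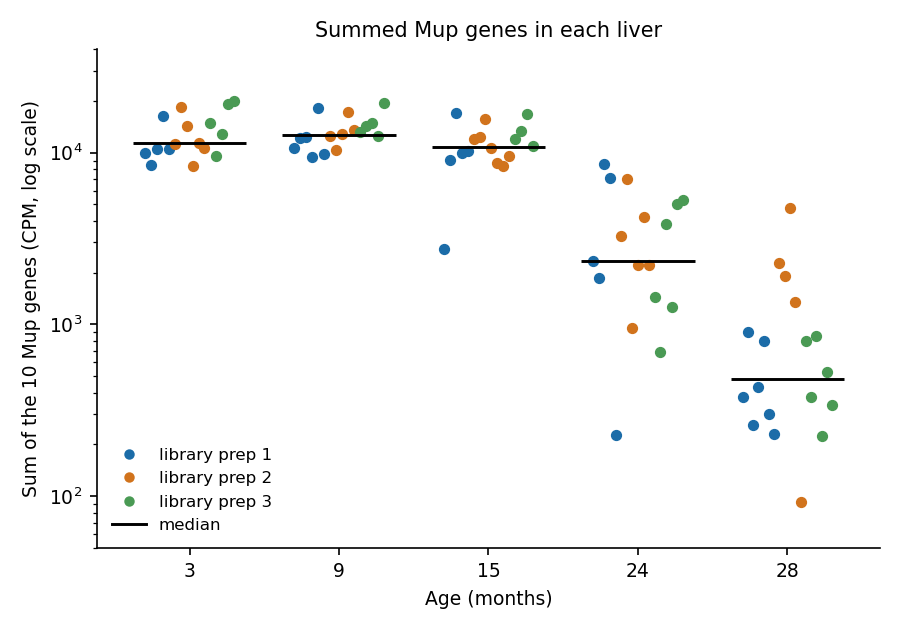
Sum of the 10 Mup genes in each of 83 livers (CPM, log axis) by age in months, 1 point per liver coloured by library prep, with the median of each age as a bar. The medians at 3, 9 and 15 months are 11309, 12738 and 10764 CPM, the 24-month livers spread from 228 to 8546 CPM, and all 28-month livers lie at or below 4755 CPM.

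Mup3 had the highest median of the 10 members per length at 3 and 28 months and the smallest spread at 3 months. It ran from 4825 to 9392 CPM at 3 months (median 7371 CPM), from 209 to 5173 CPM at 24 months (median 1712 CPM) and from 80.3 to 2597 CPM at 28 months (median 406 CPM). The 28-month livers did not overlap the 3-month livers, and 2 of 17 livers of 24 months did. The fitted log2 fold change of Mup3 was -3.49 ± 0.30 (SE) from 3 to 28 months and -1.63 ± 0.28 from 3 to 24 months (edgeR quasi-likelihood test, adjusted p 1.9e-16 and 2.5e-06).

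Mup20, the pheromone protein darcin, ran from 1186 to 3244 CPM at 3 months (median 1459 CPM) and from 7.36 to 1525 CPM at 28 months (median 47.5 CPM). A single 28-month liver overlapped the 3-month range. Its log2 fold change was -3.54 ± 0.43 (edgeR, adjusted p 7.6e-11). Mup21, a less studied member next to Mup3, fell from 78.7 to 266 CPM (median 159 CPM) to 3.39 to 99.8 CPM (median 10.8 CPM), also with 1 liver in the 3-month range, and a log2 fold change of -3.34 ± 0.32 (edgeR, adjusted p 1.4e-14).

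The near-identical members were led by Mup7 and Mup14. Mup7 ran from 430 to 6282 CPM at 3 months (median 2100 CPM), from 1.2 to 1636 CPM at 24 months (median 206 CPM) and from 0.61 to 449 CPM at 28 months (median 17.3 CPM). Mup14 ran from 135 to 1469 CPM at 3 months (median 452 CPM), from 0.134 to 294 CPM at 24 months (median 19.6 CPM) and from 0.145 to 55 CPM at 28 months (median 0.717 CPM). Both genes already spread over 10-fold between 3-month livers, at 14.6-fold for Mup7 and 10.9-fold for Mup14, where Mup3 spread 1.95-fold.

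In the fit over all livers Mup17 and Mup11 had the largest falls of the 10 members from 3 to 28 months. In preps 1 and 3 fitted alone Mup14 had the largest, at log2 fold changes of -9.54 and -9.18. By medians Mup14 fell 631-fold and Mup17 219-fold. Mup17 ran from 10.5 to 672 CPM at 3 months (median 108 CPM), a 63.7-fold spread, and from 0.0226 to 3.1 CPM at 28 months (median 0.496 CPM). Mup11 ran from 75.5 to 881 CPM at 3 months (median 279 CPM) and from 0.0226 to 7.14 CPM at 28 months (median 1.41 CPM). Neither gene overlapped between these ages. Mup1 ran from 11.1 to 166 CPM at 3 months (median 58 CPM) and from 0 to 11.6 CPM at 28 months (median 0.377 CPM), where 1 liver reached the 3-month range and 6 of 18 held at most 3 counts.

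Mup2 and Mup10 were the lowest members in young livers and fell less than their near-identical neighbours. Mup2 ran from 3.49 to 22.1 CPM at 3 months (median 12 CPM) and from 0.0452 to 5.53 CPM at 28 months (median 1.12 CPM), with 15 of 18 old livers below the young range. Mup10 ran from 4.12 to 12.5 CPM at 3 months (median 7.04 CPM) and from 0.0226 to 2.68 CPM at 28 months (median 0.4 CPM), with no overlap. At 28 months 5 of 18 livers held at most 3 counts of Mup10, a level that counting error alone can move widely.

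**Figure D2:**
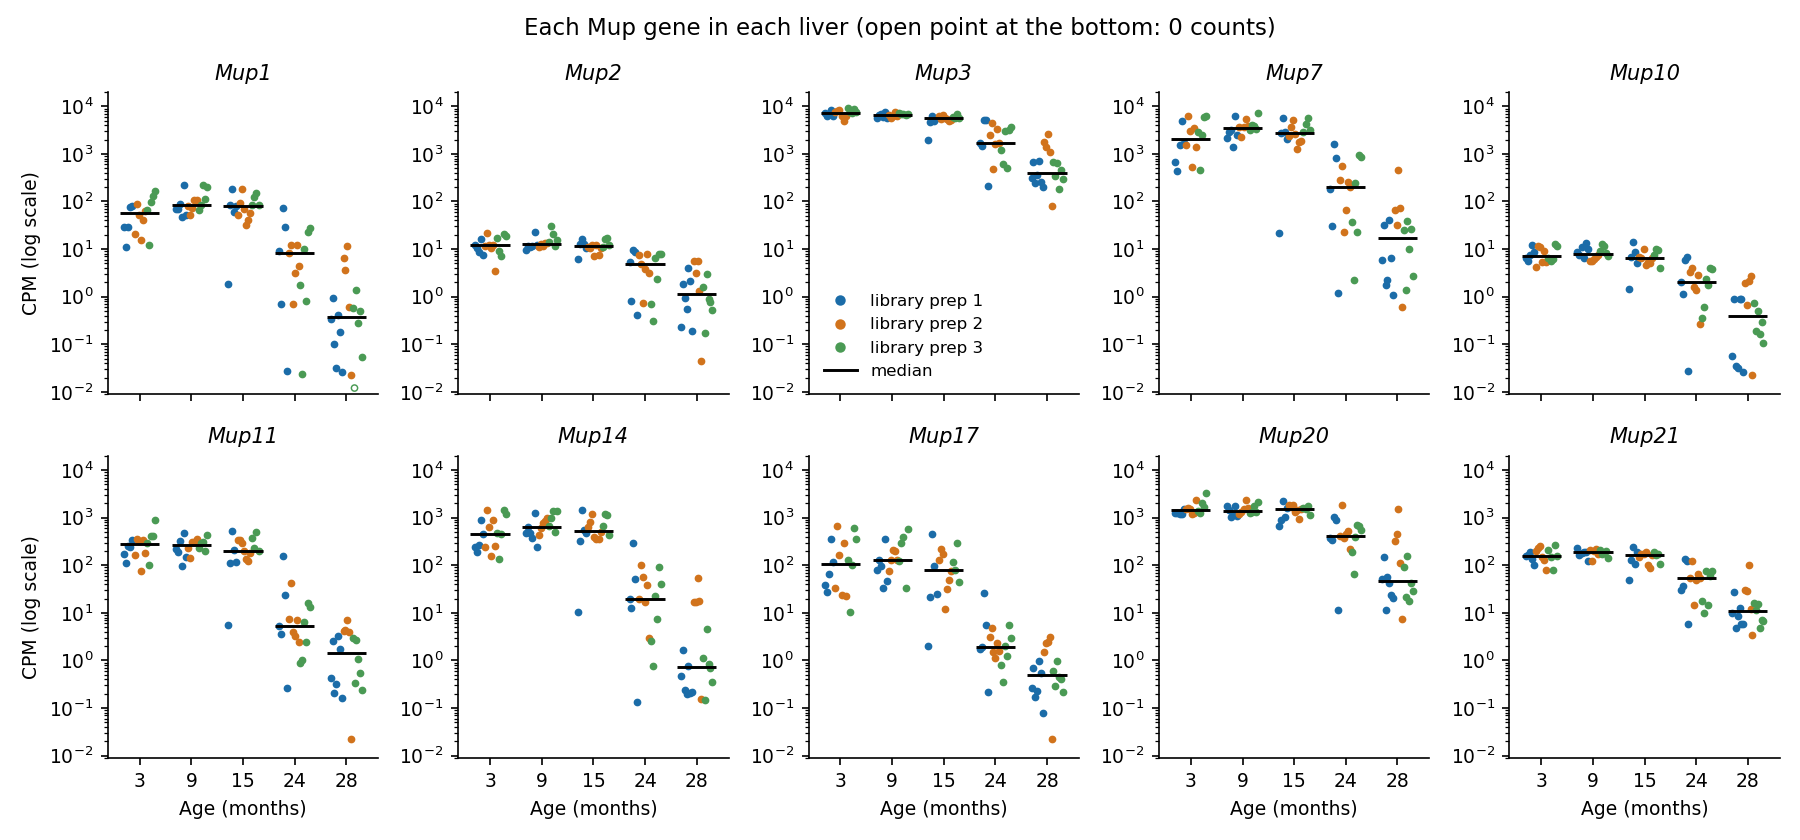
Level of each of the 10 Mup genes in each liver (CPM, log axis) by age in months, coloured by library prep, with medians as bars and an open point for the 1 value of 0 counts. Mup3 moves from a median of 7371 CPM at 3 months to 406 CPM at 28 months, and Mup14 from 452 to 0.717 CPM.

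The first test asked which members differed between the youngest and the oldest livers. All 10 were lower at 28 months (edgeR quasi-likelihood test over all genes, Benjamini-Hochberg adjusted p under 0.05), where 30.0% of all tested genes were lower. Scaled by total counts alone, all 10 were still lower, while the split over all genes moved from 4965 higher and 4674 lower to 6226 and 2998. Their log2 fold changes ran from -7.75 ± 0.67 (Mup17) and -7.17 ± 0.60 (Mup11) to -2.78 ± 0.35 (Mup2), with a median of -4.43 against 0.01 over all genes. A fall of 3 or more on the log2 scale was met by 9 of the 10 members and by 0.359% of tested genes. All 28-month livers lay below all 3-month livers for 5 members (Mup3, Mup10, Mup11, Mup14 and Mup17), against 0.725% of tested genes.

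Most of the remaining near-identical members lay between these values. The log2 fold change was -6.87 ± 0.73 for Mup14, -6.07 ± 0.72 for Mup7, -5.29 ± 0.62 for Mup1 and -3.56 ± 0.38 for Mup10 (edgeR, adjusted p 7.2e-13, 3.3e-11, 2e-11 and 8.1e-13). A single row that summed all Mup genes and pseudogenes gave -3.93 ± 0.35. Without 28 months replicate 14, the liver low in Alb, all 10 members were called and their median was -4.51. Without 28 months replicate 10, the highest liver of that age, the values fell further, to -5.98 for Mup1, -6.95 for Mup7, -7.50 for Mup14 and -4.17 for Mup20.

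At 24 months the fall was already present in every member. All 10 were lower than at 3 months, where 24.0% of tested genes were lower, with log2 fold changes from -5.65 ± 0.62 (Mup17) to -1.43 ± 0.34 (Mup2) and a median of -1.97. Mup11 stood at -4.12 ± 0.54, Mup14 at -3.55 ± 0.64, Mup7 at -2.78 ± 0.63, Mup1 at -2.22 ± 0.54, and Mup20 and Mup21 at -1.61 ± 0.40 and -1.58 ± 0.30. At the same age all 6 markers each of B and plasma, T and natural killer, Kupffer and stellate cells and 17 of 22 acute phase genes were higher, beside 25.0% of tested genes; their part in the fall was not tested. The ages overlapped in at least 1 liver for all 10 members, and 0.116% of tested genes had no overlap. Without 24 months replicate 7, the highest liver of that age, Mup11, Mup14 and Mup17 stood at -5.10, -4.37 and -6.35.

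**Figure D3:**
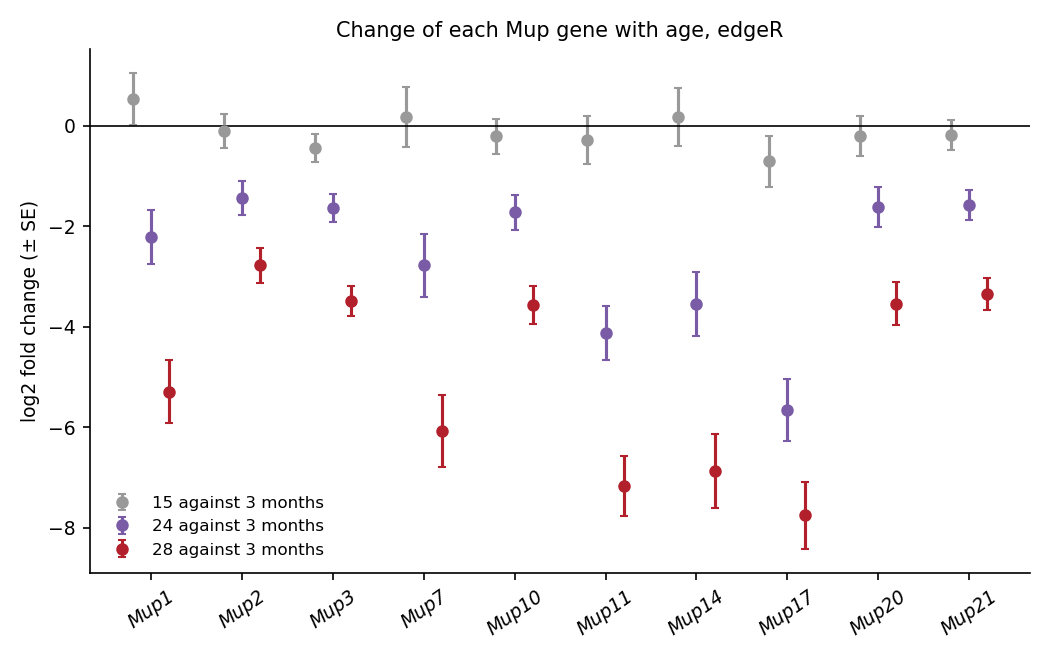
Fitted log2 fold change of each Mup gene against 3 months, with its SE as bars, at 15, 24 and 28 months (edgeR, 83 livers). At 15 months none of the 10 was called; at 24 months they lie between -5.65 and -1.43 and at 28 months between -7.75 and -2.78.

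Between the 3 young ages no difference of a member was detected in the fit over all livers. That fit called 1 of the 33 tested Mup rows, not a member, lower at 15 than at 3 months. Called members numbered 0 of 10 between 9 and 3 months, where 4.69% of tested genes were called, and 0 of 10 between 15 and 3 months, where 7.32% were. Between 15 and 9 months they numbered 0 of 10, against 0.0514% of tested genes. In all 3 comparisons 0 members had an unadjusted p under 0.05 in edgeR over all livers or in DESeq2. The voom fit called 0 as well, with 1 member at an unadjusted p under 0.05 in each of the first 2 comparisons and 0 in the third. A fit of only the 15- and 3-month livers called 1 member, Mup3, lower at 15 months, at medians of 5704 and 7371 CPM, where 286 of 14302 tested genes were lower. Such fits called 0 members for 9 against 3 and 15 against 9 months, with 2 and 1 members at an unadjusted p under 0.05. These misses do not show that the levels were equal, since Mup7 and Mup17 spread 14.6-fold and 63.7-fold among 3-month livers alone.

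The step from 15 to 24 months took in all members. All 10 were lower at 24 months, where 14.4% of tested genes were lower, with log2 fold changes from -4.94 ± 0.59 (Mup17) to -1.18 ± 0.28 (Mup3) and a median of -2.12. Without 15 months replicate 1, the low liver of that age, all 10 were still called and the median was -2.21. From 24 to 28 months all 10 were lower again, where 9.13% of tested genes were lower (963 higher and 1422 lower, or 1678 and 786 scaled by total counts), with a range from -3.32 ± 0.65 (Mup14) to -1.35 ± 0.34 (Mup2) and a median of -2.01.

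Single livers moved some values of the last step, too. Mup17 fell by 2.09 ± 0.59 on the log2 scale from 24 to 28 months (edgeR, adjusted p 0.00893), but without 24 months replicate 7 its value was -1.38 and the call was lost (edgeR, adjusted p 0.092). Without the same liver Mup11 and Mup14 moved from -3.05 and -3.32 to -2.07 and -2.61. Without 28 months replicate 10, Mup1, Mup7, Mup14 and Mup20 stood at -3.73, -4.11, -3.94 and -2.57. Without the liver low in Alb all 10 members were called, at a median of -2.19.

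Library preps were compared because each held every age. The summed members' 28-month median lay below the 3-month median of the same prep by 4.79 on the log2 scale in prep 1, by 2.56 in prep 2 and by 5.04 in prep 3. At 28 months the 4 highest livers were all of prep 2 (1348 to 4755 CPM), and so was the lowest. Fitted alone, preps 1 and 3 called all 10 members from 3 to 28 months and prep 2 called 9, with Mup20 at -1.70 (edgeR, adjusted p 0.072). Of all tested genes 2916 of 15529, 1170 of 15717 and 3147 of 15940 were lower in preps 1, 2 and 3. The test of age by prep called 0 of 10 members for 28 against 3 months and 0.109% of all genes, although 6 members had an unadjusted p under 0.05 and the lowest adjusted p was 0.12 (Mup20).

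Within preps the smaller steps were not all detected, in members or in other genes. For 24 against 3 months prep 1 alone called only Mup17, prep 2 called 8 members and prep 3 called 10, where 320 of 15529, 881 of 15717 and 2406 of 15940 tested genes were lower. All 10 members had negative values in prep 1, at a median log2 fold change of -1.37. For 24 against 15 months prep 1 called 0 members (median -1.57) and 3 genes in all, prep 2 called 7 members among 2630 genes, and prep 3 called 9 among 1290. For 28 against 24 months prep 2 called 0 members, at log2 fold changes from -1.47 to -0.36, and 0 genes in all. Prep 1 called 10 members among 2520 genes and prep 3 called 7 among 198. The counts of 0 members thus stand beside few or no calls over all genes and say nothing particular about the members. Age by prep for 24 against 3 months called 0 members and 0 genes, with 1 member (Mup11) at an unadjusted p under 0.05.

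In median, Mup3 made up more of the summed members at 24 and 28 months than at the younger ages. It was 38.4% to 77.5% of the sum at 3 months (median 58.9%), had medians of 52.6% at 9 and 52.2% at 15 months, and was 40.5% to 91.4% at 24 months (median 72.7%) and 54.6% to 92.3% at 28 months (median 83.9%), with 14 of 18 old livers above the 3-month range. The 7 near-identical members together had a median share of 26.1% (7.73% to 47.3%) at 3 months, 35.4% at 9 and 35.3% at 15 months, then 9.36% at 24 months and 4.02% (0.666% to 11.2%) at 28 months. All but 1 of the 28-month livers lay below the 3-month range of that share. Without the liver low in Alb the 28-month medians were 84.1% and 4.02%. As levels, the 7 together fell from a median of 3140 to 21.5 CPM and Mup3 from 7371 to 406 CPM. Mup20 had median shares of 12.9% at 3 months and 8.63% at 28 months.

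**Figure D4:**
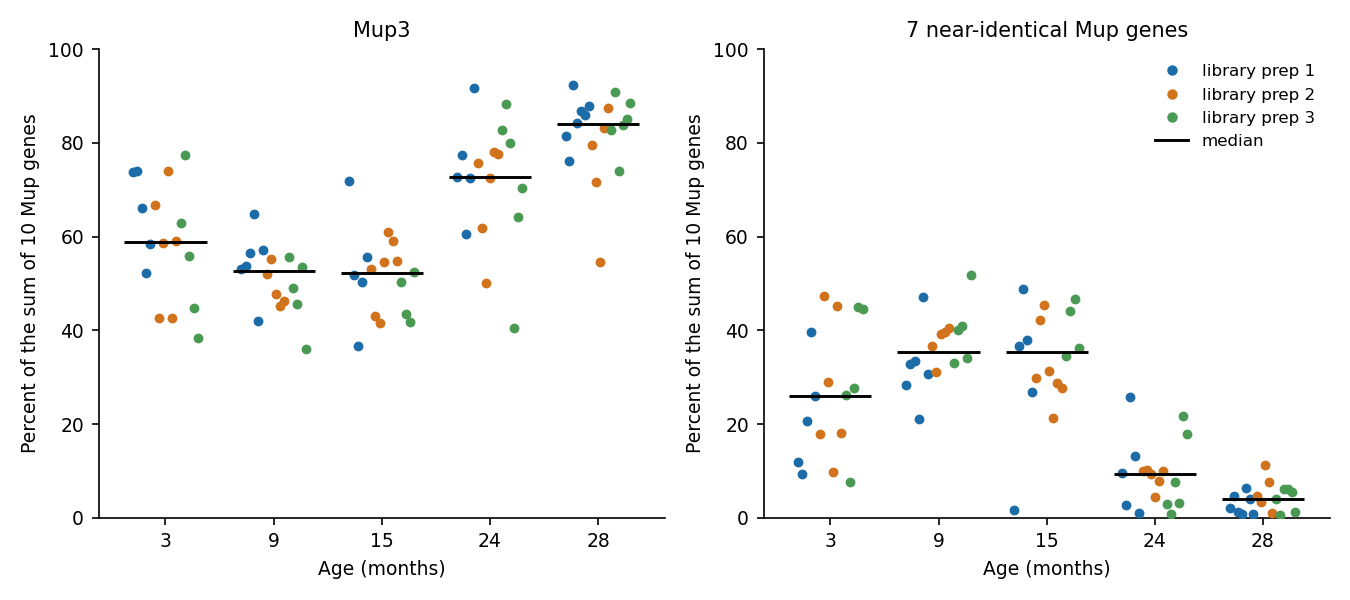
Percent of the sum of the 10 Mup genes given by Mup3 (left) and by the 7 near-identical members together (right) in each liver, by age in months, coloured by library prep, with medians as bars. The Mup3 share has medians of 58.9% at 3 months and 83.9% at 28 months; the near-identical share has medians of 26.1% and 4.02%.

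The order of the members by level was compared per kilobase of transcript. At 3 months the medians were 7490 CPM per kb for Mup3, 2266 for Mup7, 1572 for Mup20, 489 for Mup14, 300 for Mup11 and 235 for Mup21. Mup17, Mup1, Mup2 and Mup10 followed at 117, 62.6, 12.9 and 7.59 CPM per kb. At 28 months Mup3 (413 CPM per kb) and Mup20 (51.2) led, Mup7 (18.7) and Mup21 (16) came next, and the other 6 lay between 0.407 and 1.51 CPM per kb. At both ages the ranges over livers of all 9 neighbouring pairs overlapped. Within the same liver, Mup3 exceeded Mup7, Mup20 exceeded Mup14, Mup14 exceeded Mup11 and Mup1 exceeded Mup2 in 16 of 16 livers of 3 months. At 28 months Mup3 exceeded Mup20, Mup20 exceeded Mup7 and Mup21 exceeded Mup11 in 18 of 18. The order of the other neighbours differed between livers.

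The members varied together between livers, also after differences between ages and preps were removed. Pairs of members were not correlated within a single age. Over 83 livers the Spearman correlation of log2 CPM between pairs of members ran from 0.76 to 0.97 (45 pairs, median 0.88). With the means of age and prep removed it ran from 0.51 (Mup17 and Mup21) to 0.92 (Mup1 and Mup7), with a median of 0.77. These are descriptions over points that share libraries and depth, and near-identical members also share reads. Mup3, whose reads are mostly its own, followed the sum within age and prep at 0.94, of which it is the largest part.

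Of all other genes, the carboxylesterase gene Ces3a followed the summed members most closely. Its Spearman correlation with the sum over 83 livers was 0.92, and 0.82 with age and prep means removed. Ces3a had a median of 2111 CPM at 3 months and 423 CPM at 28 months. Within the 18 livers of 28 months the correlation was 0.93 and within the 17 of 24 months 0.94, so livers with more Mup RNA also had more Ces3a. Without the liver low in Alb the 28-month value was 0.96. These values describe points that share library and depth, and they have no test.

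The other genes nearest to the sum were also hepatocyte enzymes and carriers. They were the fatty acid hydroxylase Cyp4v3 (0.91 over 83 livers), the peroxisomal sterol carrier Scp2 (0.91), the cytochrome Cyp2f2 (0.89), the sulfotransferase Sult2a8 (0.89) and the glutathione transferase Gstp1 (0.89). With age and prep means removed, the glucuronosyltransferase Ugt2b1 and the peroxisomal CoA hydrolase Nudt7 came after Ces3a, both at 0.78. All 8 genes were lower at 28 than at 3 months (edgeR adjusted p under 0.05), by log2 fold changes from -0.87 ± 0.09 (Cyp4v3) to -2.51 ± 0.22 (Nudt7), less than any member.

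At the other end stood Slc22a26 and Slc22a27, organic anion transporter genes that female livers express more, and the matrix protease gene Mmp14. Their correlations with the sum were -0.90, -0.88 and -0.88. Slc22a26 had a median of 1.08 CPM at 3 months, 34.1 CPM at 24 months and 247 CPM at 28 months. Within the 28-month livers its correlation with the sum was -0.83 and within the 24-month livers -0.74. Slc22a27 went from a median of 0.67 to 33.9 CPM and Mmp14 from 43 to 74.1 CPM.

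**Figure D5:**
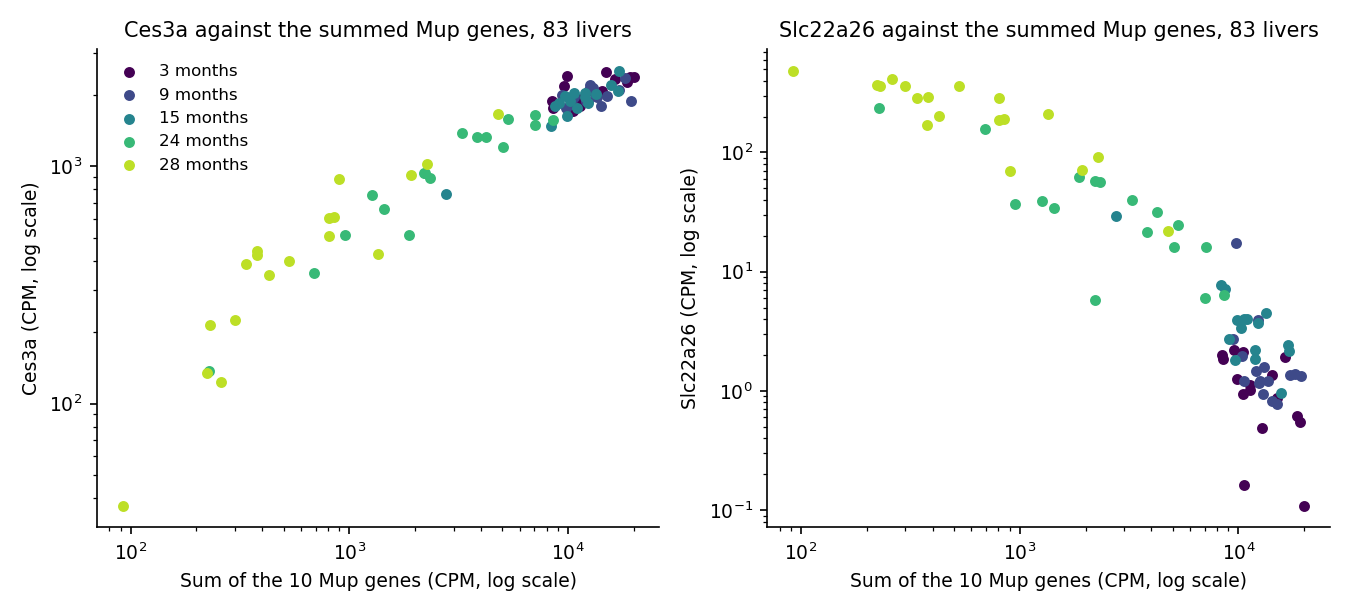
Ces3a (left) and Slc22a26 (right) against the sum of the 10 Mup genes in 83 livers (CPM, log axes), coloured by age in months. Ces3a rises with the sum (Spearman 0.92) and Slc22a26 runs against it (Spearman -0.90), within the 24- and 28-month livers as well.

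At 24 and 28 months the remaining Mup genes that were tested fell with the members. Of the 12, 10 were tested, and all 10 were lower at 28 and at 24 months than at 3 months, beside 30.0% and 24.0% of all tested genes, with median log2 fold changes of -4.44 and -2.66. Mup9 had medians of 196 CPM at 3 months and 0.468 CPM at 28 months, Mup15 of 104 and 0.192 CPM, and Mup12 of 40.2 and 0.879 CPM. All 13 tested pseudogenes of 27 were lower as well, among them Mup-ps19 (135 and 5.16 CPM), and none of the tested Mup rows went the other way. From 24 to 28 months all 10 genes and 9 of the 13 pseudogenes were lower, beside 9.13% of all tested genes, and 4 pseudogenes were not called. Mup6, Mup-ps18, Mup-ps20 and Mup-ps22 share no 100-base window with another gene. Their log2 fold changes from 3 to 28 months were -4.08 ± 0.37, -4.31 ± 0.44, -4.93 ± 0.49 and -3.32 ± 0.43. Their levels were low, at 3-month medians of 0.868, 1.71, 0.714 and 1.35 CPM. The other tested rows share such windows with other genes, so they are no separate evidence.

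Growth hormone signalling genes were read beside the members from a list of 22 genes. At 28 against 3 months 8 were called higher and 8 lower, with a median log2 fold change of 0.17, a split near that of all tested genes (31.9% higher, 30.0% lower). Ghr, the receptor, fell from 379 to 741 CPM (median 547 CPM) to 199 to 481 CPM (median 347 CPM), a log2 fold change of -0.67 ± 0.08 (edgeR, adjusted p 4.1e-11). Stat5b had medians of 81.2 and 64.8 CPM (-0.15 ± 0.09, edgeR adjusted p 0.16). The growth factor Igf1, at medians of 494 and 501 CPM, had -0.09 ± 0.08 (edgeR adjusted p 0.3), and the feedback inhibitor Socs2 had 0.41 ± 0.30 (edgeR adjusted p 0.23).

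The largest changes of that list were in transcription factors and feedback genes. Cux2, a repressor found mainly in female liver, had a median of 0.496 CPM at 3 months and 31.4 CPM at 28 months (range 0.293 to 105 CPM), a log2 fold change of 6.18 ± 0.57. Socs3, a cytokine feedback inhibitor, rose by 2.02 ± 0.35. Bcl6, a repressor stronger in male liver, fell from a median of 92.8 to 10.7 CPM (edgeR, adjusted p 9.3e-06), and Onecut1, a liver homeodomain factor, fell by 1.56 ± 0.42 on the log2 scale (edgeR, adjusted p 0.00091). The 3- and 28-month ranges overlapped for all 4 of these genes.

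Genes known to be stronger in male or female liver split by direction. Their lists share genes with the results above. Cyp2f2, Gstp1 and Nudt7 are on the male-biased list, and Slc22a26 and Cux2 are on the female-biased list. Of 19 tested male-biased genes 18 were lower at 28 months, where 30.0% of tested genes were, and 0 higher, with a median log2 fold change of -2.40; Sult5a1 was not called. Hsd3b5, a male-specific ketosteroid reductase, had medians of 215 and 0.235 CPM, the transporter Slco1a1 532 and 0.56 CPM, the fatty acid elongase Elovl3 619 and 0.992 CPM, and the fatty acid hydroxylase Cyp4a12a 312 and 3.03 CPM. At 24 months 16 of the 19 were lower, against 24.0% of tested genes. Within the 28-month livers the list's summed CPM had a Spearman correlation of 0.81 with the summed members, and 0.84 without the liver low in Alb.

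Of 19 tested female-biased genes 18 were higher at 28 months, where 31.9% of tested genes were, and 0 lower, with a median log2 fold change of 4.65; Cyp2b10 was not called. The cytochrome gene Cyp2b13 had medians of 0 CPM at 3 months and 36.2 CPM at 28 months, and the estrogen sulfotransferase gene Sult1e1 of 0.0342 and 8.09 CPM. At 24 months 16 of 19 were higher, against 25.0% of tested genes. The list's summed CPM had a Spearman correlation of -0.90 with the summed members within the 18 livers of 28 months and -0.54 within the 17 of 24 months. The former was -0.89 without the liver low in Alb. Cyp2b, Cyp4a, Slc22a and Gstp genes have close copies, so their single values are uncertain like those of the near-identical members.

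Other regulators that act on Mup genes or on male liver genes moved in both directions. Of 14 tested, 6 were lower at 28 months and 3 higher, beside 30.0% and 31.9% of all tested genes. Srd5a1, which makes dihydrotestosterone, had a log2 fold change of -2.16 ± 0.17 at medians of 90 and 15.2 CPM, and the pioneer factor Foxa1 -1.17 ± 0.18. The coactivator gene Ppargc1a (1.07 ± 0.18) and the estrogen receptor gene Esr1 (0.73 ± 0.13) were higher. All 4 had adjusted p at or below 8.8e-07 (edgeR).

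Other lipocalin genes did not move as one. Of 10 tested, 5 were higher at 28 months and 3 lower, beside 31.9% and 30.0% of all tested genes. Orm3, Lcn2 and Orm2, which the liver makes in the acute phase, had log2 fold changes of 4.85 ± 0.50, 4.06 ± 0.74 and 3.46 ± 0.69, and Ptgds, a prostaglandin synthase, had -2.01 ± 0.29. Among 27 secreted hepatocyte proteins 9 were lower and 5 higher, with a median of 0.02. The serpin gene Serpina3k had -1.47 ± 0.13 (11121 to 4015 CPM in median), while the haem carrier Hpx had 1.21 ± 0.19. Of 22 acute phase genes 15 were higher and 0 lower at 28 months. Without the liver low in Alb 13 acute phase genes were higher and 1 lower, the lipocalins split into 4 higher and 4 lower, and 6 secreted proteins were higher and 8 lower.

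Markers of the liver's cell types were read beside these results. Of 6 hepatocyte markers 2 were lower at 28 months, Ttr (-0.77 ± 0.12) and Serpina1a (-0.35 ± 0.08), and 0 higher, beside 30.0% and 31.9% of all tested genes. Without the liver low in Alb 2 were lower and 1 higher. Their summed level ran from 58437 to 101735 CPM at 3 months and from 78608 to 114487 CPM in the 28-month livers other than replicate 14. All 6 B and plasma cell markers, all 6 T and natural killer cell markers, all 6 Kupffer cell markers and 5 of 6 stellate markers were higher at 28 months, beside 31.9% of all tested genes. Their summed levels went from 5.97 to 24 CPM to 14.1 to 339 CPM, from 1.58 to 20.9 CPM to 7.52 to 40.7 CPM, from 259 to 960 CPM to 429 to 4020 CPM, and from 259 to 331 CPM to 378 to 541 CPM. Of 6 endothelial markers 1 was higher and 2 lower, and of 5 tested red cell markers 3 were higher and 1, Alas2, lower (-1.86 ± 0.21), with 2 higher and 1 lower without the liver low in Alb. The 1 tested pancreas marker, Cela1, had medians of 24.8 CPM at 3 months and 9.93 CPM at 28 months (-1.23 ± 0.16). Summed pancreas markers, which in the other 28-month livers were nearly all Cela1, had a Spearman correlation of 0.81 with the summed members within 28 months, and 0.79 without that liver. Of 6 cholangiocyte markers 3 were higher, and without the liver low in Alb 0 were higher and 1 lower. The counts of the immune and stellate markers and of the growth hormone, male-biased, female-biased and regulator lists were the same without it. No marker of these lists was at 0 in every liver. The part of these cells in the fall of the Mup genes was not tested.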

How the data were processed

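Per the submitters' processing notes, the tools were cutadapt 2.8, HISAT2 2.1.0, SAMtools 1.9 and featureCounts of Subread 2.0.1, with the builds GRCm38.p6 and mm10. Counting options, the strand setting and the rule for shared reads are not given in the sources used here. The authors deposited raw counts, 1 table per tissue; 55144 of 55471 identifiers matched a symbol, and 0 sample columns were left unused. Liver counts were fitted in edgeR 4.0.16 (R 4.3.3) with filterByExpr by age, TMM scaling and a quasi-likelihood model of age and prep over 83 livers; p-values were Benjamini-Hochberg adjusted within each comparison over 15579 genes, called under 0.05. CPM use the TMM-scaled library; at most 3 counts is the floor, which covers counting error only. DESeq2 1.42.0 and voom in limma 3.58.1 were alternatives. On simulated counts (28 against 3 months) 40 of 40 genes with a log2 change of -4, -2 or -1 each were called. With a change of 1 and 2, 38 of 40 and 39 of 40 were called, and 10 of 15318 unchanged genes. The changed genes were drawn at random from those with a mean of at least 1 CPM. Their recovery need not hold for the members.

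The members, lists and tests were chosen with earlier results of these data known. Besides the members, up to 4 called genes per list with the largest change and a mean of at least 1 CPM, Ghr, Stat5b, Igf1 and Socs2, the genes nearest to the sum by Spearman correlation, and the 3 highest other Mup genes were named. A gene that this rule names is not reported here. Replicate numbers were not used to pair livers: correlations of same-numbered livers of different ages had a median of 0.0091. No pair of livers of 1 age agreed within counting noise (lowest mean squared residual 8.78, where 1 is counting noise). Coding and window comparisons used Biopython 1.88 and MAFFT 7.526.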

Additional observations from a re-analysis of the deposited data

Results flagged for a closer look

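Brain libraries, which no comparison here uses, held a trace of Mup signal in a few cases. Of 82 brain libraries, 2 held more than 3 counts over the 10 members together. The sum had a median of 0 counts over all brains and a highest value of 17 counts, or 0.53 CPM, in 28 months replicate 5, which also held 18.5 CPM of Alb. The other brain above 3 counts was 1 of 9 months, with 5 counts. Mup3 gave the highest single value, at 0.28 CPM.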

How the results depend on the processing

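The fall to 28 months was called for all 10 members with RLE factors, total counts, scaling without Mup genes, no filter, no prep term, only the 2 ages, DESeq2, voom, the replicate block and without either of 2 livers of 15 months (replicates 1 and 16, an alternative chosen after seeing the data). The counts that moved by over 1.5 times were 1 member in prep 1 alone for 24 against 3 months, 0 in prep 1 alone for 24 against 15 months (3 of 15529 genes called), 0 in prep 2 alone for 28 against 24 months (0 of 15717 genes called), and 1 for 15 against 3 months with only the 2 ages. Counts of the lists and values of the sum without 28 months replicate 14 were also chosen after seeing the data. Leaving out each of 51 livers in turn kept 10 of 10 calls for 28 and 24 against 3 months and 9 to 10 for 28 against 24 months. No value of a member in the 4 comparisons that called members changed sign. Of 560 single values of members under the other settings 518 kept direction and side of the threshold and 42 lost the call; leaving out livers lost 1. The replicate number as a block gave 10 members for 28 against 3, 24 against 3 and 24 against 15 months and 9 for 28 against 24 months, where Mup17 had -1.81 (edgeR, adjusted p 0.056); voom gave it -2.10 (adjusted p 0.21) and also 9 members. Same-numbered livers shared only a number, since 3 of 83 livers correlated best with their own number. The log2 ratio of the 28- to the 3-month median of the sum was -4.56, and -4.53, -4.60 and -5.31 with total counts, with all Mup rows and relative to Alb. Total counts moved the median of all genes to 0.11 for 28 against 3 months and the members' median to -4.31. At 28 months low counts limit Mup1 and Mup10 most.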
